A study of Saccharomyces cerevisiae with 4 samples.

Results

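The copper and iron uptake genes of budding yeast described here are 10 of the 7127 features in the count table: the copper transporter genes CTR1 and CTR3, the metalloreductase genes FRE1, FRE2 and FRE7, the copper-sensing regulator gene MAC1, the iron uptake genes FET3, FTR1 and FET4, and the copper pump gene CCC2. They were picked by gene identifier, with their expression in these same libraries already known, so their differences between the groups are given as a description and carry no test. All 10 passed the filter on low counts. RNA came from strain BY4742, a haploid laboratory strain with the genotype MATα his3Δ1 leu2Δ0 lys2Δ0 ura3Δ0, grown exponentially in the rich medium YPD. Cultures received 5 mM tauroursodeoxycholic acid (TUDCA), the taurine conjugate of a bile acid and known as a chemical chaperone, for 2 h, or none (Ctrl). There were 2 libraries in each group, and means are given with their SD at n = 2. Nothing in the labels says that the libraries came from separate cultures, so the spread between them may be technical.

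Yeast cells take up copper and iron after reducing the metals at the cell surface. Reductases of the FRE family reduce both metals, Ctr1 and Ctr3 carry reduced copper across the plasma membrane, and the multicopper oxidase Fet3 with the permease Ftr1 carries iron. The systems are joined, because Fet3 works only after the pump Ccc2 has supplied it with copper in the secretory pathway. When copper is scarce the factor Mac1 activates CTR1, CTR3, FRE1 and FRE7. When iron is scarce Aft1 and Aft2 activate FET3, FTR1, FRE2, CCC2 and siderophore transport genes.

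The libraries held 74963319 and 85380303 assigned counts in TUDCA, against 74080860 and 97133389 in Ctrl. Levels are given in CPM, read counts per 1 M assigned counts, scaled by TMM factors. Ctrl replicate 2 stood apart: over 5386 genes with a mean of at least 10 CPM, the SD of log2 ratios was 0.21 to 0.26 in pairs with it and 0.11 to 0.13 in pairs without it. As the strain's deletions require, no library had a read for LEU2 or URA3 (a count of 0, whose limit of 3 counts is 0.0405 CPM in the smallest library, for counting error only), and LYS2 had at most 2 counts. Reads where features overlap went to neither: of 190 features wholly covered by others, 183 are listed at 0, against 51 of 5726 that none overlapped.

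Mac1 target genes carry the short motif TTTGCTC, or TTTGCGC in its other form, and Aft1 and Aft2 target genes the motif TGCACCC. The stretches 400 to 101 bases before the start codon are shown for 5 genes, because these had the 3 highest and the 2 lowest TUDCA to Ctrl values of the 10. They were read from the RefSeq R64 genome, the build that the submitters' processing notes name, and run 5′ to 3′ on the strand of the gene. Capitals mark matches on either strand, so a match on the opposite strand reads as the reverse complement. The window was set with the positions of these motifs already seen.
CTR1 (chrXVI:785808-786107, plus strand): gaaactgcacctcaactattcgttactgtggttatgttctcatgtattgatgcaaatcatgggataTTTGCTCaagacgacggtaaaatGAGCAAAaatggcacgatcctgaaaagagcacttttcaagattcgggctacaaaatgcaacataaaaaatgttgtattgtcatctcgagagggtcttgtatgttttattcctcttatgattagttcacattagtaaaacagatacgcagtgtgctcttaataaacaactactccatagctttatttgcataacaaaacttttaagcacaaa
FRE1 (chrXII:568167-568466, plus strand): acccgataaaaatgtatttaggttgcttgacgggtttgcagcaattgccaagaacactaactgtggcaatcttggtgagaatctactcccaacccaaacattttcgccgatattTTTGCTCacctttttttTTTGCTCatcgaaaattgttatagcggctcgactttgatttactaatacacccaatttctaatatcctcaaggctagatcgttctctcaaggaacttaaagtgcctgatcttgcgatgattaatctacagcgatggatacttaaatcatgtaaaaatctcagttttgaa
FRE7 (chrXV:40348-40647, plus strand): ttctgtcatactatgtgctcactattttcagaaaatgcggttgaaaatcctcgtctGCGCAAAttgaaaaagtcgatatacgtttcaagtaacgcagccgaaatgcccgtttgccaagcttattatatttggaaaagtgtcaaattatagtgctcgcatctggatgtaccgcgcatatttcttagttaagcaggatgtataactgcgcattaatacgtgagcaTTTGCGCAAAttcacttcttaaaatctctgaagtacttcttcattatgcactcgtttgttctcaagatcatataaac
FTR1 (chrV:461841-462140, minus strand): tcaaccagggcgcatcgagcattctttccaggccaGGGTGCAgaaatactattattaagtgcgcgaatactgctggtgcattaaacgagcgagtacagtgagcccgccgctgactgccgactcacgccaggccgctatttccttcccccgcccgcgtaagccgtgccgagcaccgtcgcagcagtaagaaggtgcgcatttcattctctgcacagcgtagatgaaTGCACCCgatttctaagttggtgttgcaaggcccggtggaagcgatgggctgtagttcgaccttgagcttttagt
FET4 (chrXIII:914639-914938, minus strand): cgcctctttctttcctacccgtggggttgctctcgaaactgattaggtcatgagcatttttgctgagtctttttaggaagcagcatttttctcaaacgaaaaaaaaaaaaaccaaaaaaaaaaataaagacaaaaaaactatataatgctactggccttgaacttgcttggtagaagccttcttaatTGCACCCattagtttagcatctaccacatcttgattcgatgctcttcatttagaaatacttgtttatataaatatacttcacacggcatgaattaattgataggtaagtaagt

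CTR1 held 2 matches to TTTGCTC, starting 334 and 311 bases before the start codon on opposite strands. FRE1 held 2 on its own strand, at 286 and 269. FRE7 held 3 matches to TTTGCGC, at 344, 177 and 174, of which the last 2 overlap as a palindrome. The other 7 genes had no Mac1 motif in this window. Over 5988 protein-coding genes, 4.84% of windows held TTTGCTC, 2.86% held TTTGCGC, 7.60% held either and 0.317% held at least 2 matches. The Aft motif TGCACCC, held by 1.45% of windows, occurred in FET3, FTR1, FET4 and CCC2, with 2 matches each in FTR1 and CCC2. A match is a description of the letters and not a bound site, and a missing match says nothing of the factor.

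**Figure D1:**
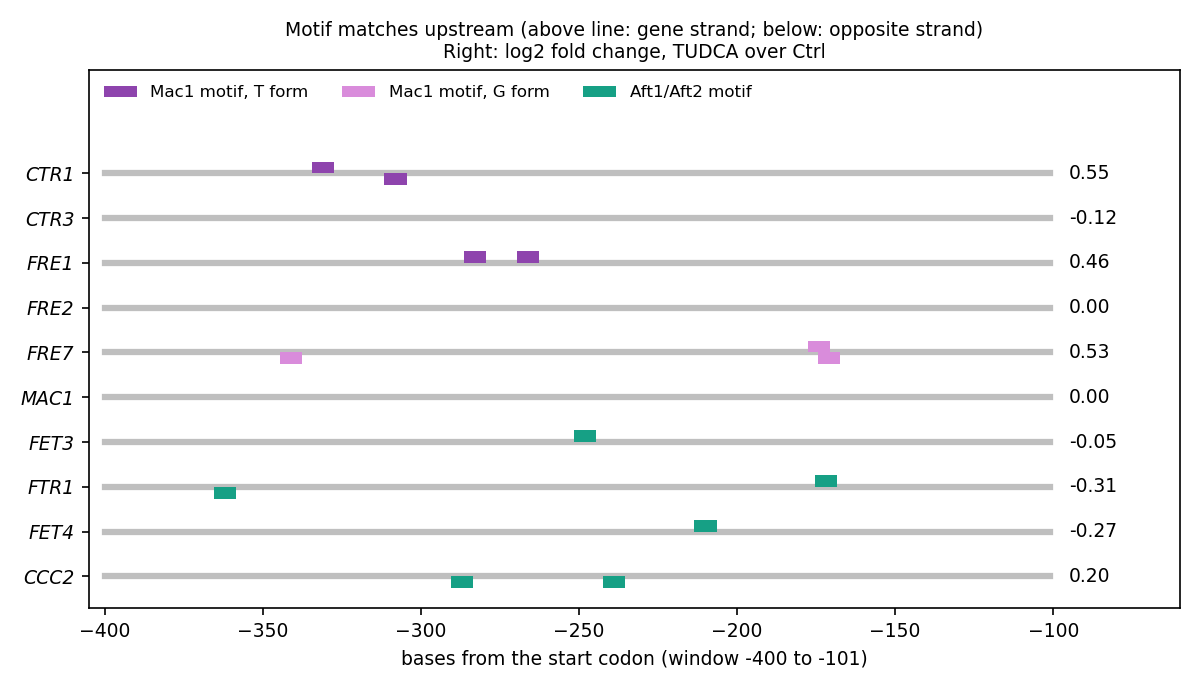
Positions of motif matches in the window 400 to 101 bases before the start codon (x axis, bases) of the 10 genes (rows), with matches on the strand of the gene above the line and those on the opposite strand below it. The 3 genes with Mac1 motifs in this window, CTR1, FRE1 and FRE7, have the 3 highest log2 fold changes of TUDCA over Ctrl, printed at the right. The genes and the window were chosen with these values and motif positions known, so nothing is read from this. In CTR3 a Ty2 retrotransposon takes up 298 of the 300 bases of the window, and Mac1 motifs lie upstream beyond it.

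The copper transporter gene CTR1 and the reductase genes FRE1 and FRE7 were the 3 with the highest values in TUDCA relative to Ctrl, at 1.37 to 1.47 times the Ctrl mean. In each of them both TUDCA libraries lay above both Ctrl libraries, as they did in CCC2 and in 23.7% of all genes tested. The other copper transporter gene, CTR3, and the regulator gene MAC1 did not share this. FTR1 and FET4, of iron uptake, had the lowest values, at 0.809 and 0.827 times the Ctrl mean.

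CTR1 (YPR124W, chrXVI:786208-787428) encodes the main high-affinity copper transporter of the plasma membrane. It was at 116 and 131 CPM in TUDCA and at 74.2 and 94.5 CPM in Ctrl. The groups did not overlap, and the Ctrl libraries were further apart than the TUDCA libraries on the log2 scale (0.35 against 0.18). The means were 124 ± 10.7 CPM in TUDCA and 84.4 ± 14.4 CPM in Ctrl, a fitted log2 fold change of 0.55 (SE 0.12). It was 0.74 without Ctrl replicate 2 and 0.40 without Ctrl replicate 1. A feature on the opposite strand, YPR123C, covers 30.1% of CTR1, and reads there were not counted for CTR1.

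YPR123C reaches 67 bases past the start codon of CTR1 into the sequence upstream, and since reads in overlaps went to neither feature, its counts come from that stretch. It had 562 and 757 counts in TUDCA, against 368 and 413 in Ctrl, so these reads, which CTR1's count does not include, were also higher in both TUDCA libraries. The strand setting of the counting is not given in the sources used here. That reads in overlaps went to neither feature is taken from the 183 of 190 wholly covered features listed at 0. Whether the reads of YPR123C belong to the CTR1 transcript was not tested.

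CTR3 (YLR411W, chrXII:947253-947978) encodes the second high-affinity copper transporter. It was at 10.9 and 9.997 CPM in TUDCA and at 10.9 and 11.8 CPM in Ctrl. TUDCA replicate 1 and Ctrl replicate 1 had nearly the same value, so the groups only just failed to overlap. The log2 fold change was -0.12 (SE 0.13), and between -0.19 (without TUDCA replicate 1) and -0.062 (without TUDCA replicate 2) when any 1 library was left out. In laboratory strains related to S288C a Ty2 retrotransposon separates CTR3 from its own control region, and the R64 annotation places a Ty2 element of 5959 bases at chrXII:941192-947150, ending 102 bases before the CTR3 start codon. It takes up 298 of the 300 bases of the CTR3 window. The 300 bases before the element are shown because they hold the Mac1 motifs that lie upstream of CTR3 beyond the insertion, in capitals.
Upstream of the Ty2 element at CTR3 (chrXII:940892-941191, plus strand): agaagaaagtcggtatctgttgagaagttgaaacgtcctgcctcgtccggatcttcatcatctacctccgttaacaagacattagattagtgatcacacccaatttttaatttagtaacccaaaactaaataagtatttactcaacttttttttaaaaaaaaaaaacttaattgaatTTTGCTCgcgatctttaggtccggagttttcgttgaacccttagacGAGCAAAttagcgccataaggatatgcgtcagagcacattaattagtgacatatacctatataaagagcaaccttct
The matches start 123 and 77 bases before the element, on opposite strands like those of CTR1, and 6184 and 6138 bases before the CTR3 start codon.

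FRE1 (YLR214W, chrXII:568567-570627) encodes the main cell-surface reductase for copper and iron. It was at 60.3 and 70.6 CPM in TUDCA and at 46.6 and 48.7 CPM in Ctrl. The groups did not overlap, and the TUDCA libraries were further apart than the Ctrl libraries. The log2 fold change was 0.46 (SE 0.094), with 0.34 without TUDCA replicate 2.

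FRE7 (YOL152W, chrXV:40748-42610) encodes a reductase of the same family that is known as a Mac1 target. It was at 21.6 and 20.6 CPM in TUDCA and at 14.2 and 14.9 CPM in Ctrl. This was the tightest of the 3: the gap between the groups was several times that within either, and the log2 fold change of 0.53 (SE 0.10) ranged only from 0.50 to 0.57 when any 1 library was left out.

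FRE2 (YKL220C, chrXI:9091-11226) encodes a reductase with iron-dependent control. It was at 15.1 and 16.1 CPM in TUDCA and at 15.8 and 15.4 CPM in Ctrl. The Ctrl libraries lay between the TUDCA libraries, and the log2 fold change was -0.0016 (SE 0.11). MAC1 (YMR021C, chrXIII:317165-318418) was at 52.9 and 51.1 CPM in TUDCA and at 51.2 and 52.5 CPM in Ctrl. Its groups overlapped as well, with a log2 fold change of 0.0029 (SE 0.074). Mac1 is known to be controlled by copper at the level of the protein, which counts of its RNA do not measure.

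**Figure D2:**
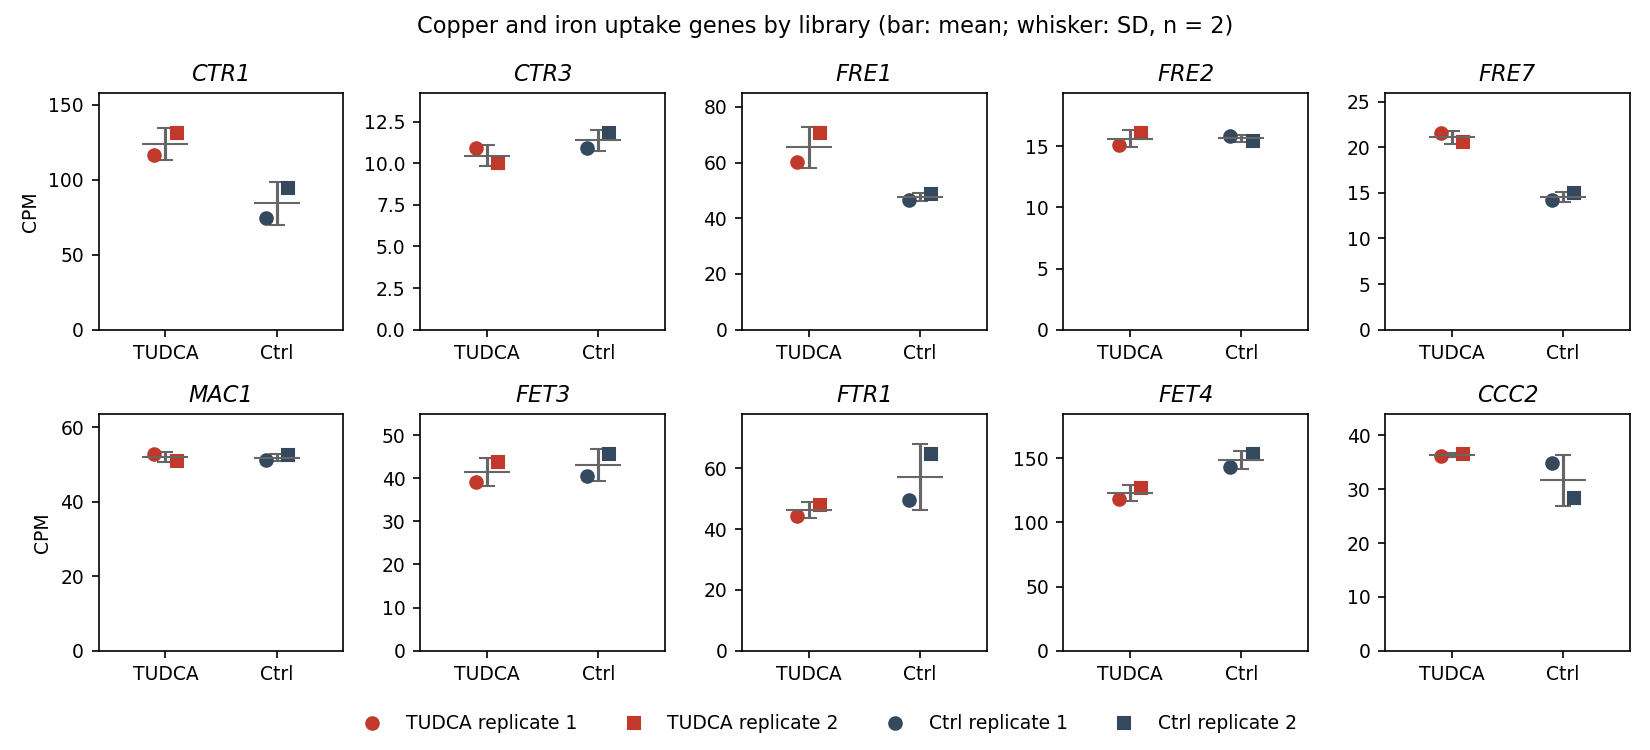
Level of each of the 10 genes in CPM (y axis, from 0) in the TUDCA and Ctrl libraries, with the mean and SD of each group (n = 2). CTR1, FRE1, FRE7 and CCC2 have both TUDCA libraries above both Ctrl libraries, as do 23.7% of all genes tested. FTR1, FET4 and CTR3 have both below, as do 23.9%, while MAC1, FRE2 and FET3 overlap.

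The iron uptake genes did not follow CTR1. FET3 (YMR058W, chrXIII:388822-390732), the multicopper oxidase gene, was at 39.1 and 43.8 CPM in TUDCA and at 40.4 and 45.6 CPM in Ctrl, so that its groups overlapped, with a log2 fold change of -0.054 (SE 0.097), whose sign depended on the library left out (0.040 without Ctrl replicate 2 and -0.14 without TUDCA replicate 2). FTR1 (YER145C, chrV:460526-461740), the gene of its permease partner, was at 44.4 and 48.1 CPM in TUDCA and at 49.5 and 64.8 CPM in Ctrl. Its groups did not overlap, but Ctrl replicate 2 lay far above the other 3 libraries. The log2 fold change was -0.31 (SE 0.13), with -0.097 without Ctrl replicate 2 and -0.47 without Ctrl replicate 1.

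FET4 (YMR319C, chrXIII:912880-914538) encodes a low-affinity transporter that carries iron, copper and zinc. It was at 118 and 127 CPM in TUDCA and at 143 and 153 CPM in Ctrl. The TUDCA libraries were both below the Ctrl libraries, by more than the gap within either group. The log2 fold change was -0.27 (SE 0.084), and between -0.33 and -0.22 when any 1 library was left out.

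CCC2 (YDR270W, chrIV:1005675-1008689) encodes the copper-transporting ATPase that loads Fet3. It was at 36.1 and 36.6 CPM in TUDCA and at 35.0 and 28.3 CPM in Ctrl. The groups did not overlap, but TUDCA replicate 1 and Ctrl replicate 1 were close and Ctrl replicate 2 lay below the other 3. The log2 fold change was 0.20 (SE 0.11), with 0.058 without Ctrl replicate 2 and 0.37 without Ctrl replicate 1. Other features cover 20.2% of the gene. In bulk RNA, a change in the share of cells that express a gene and one in its RNA per cell cannot be told apart.

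**Figure D3:**
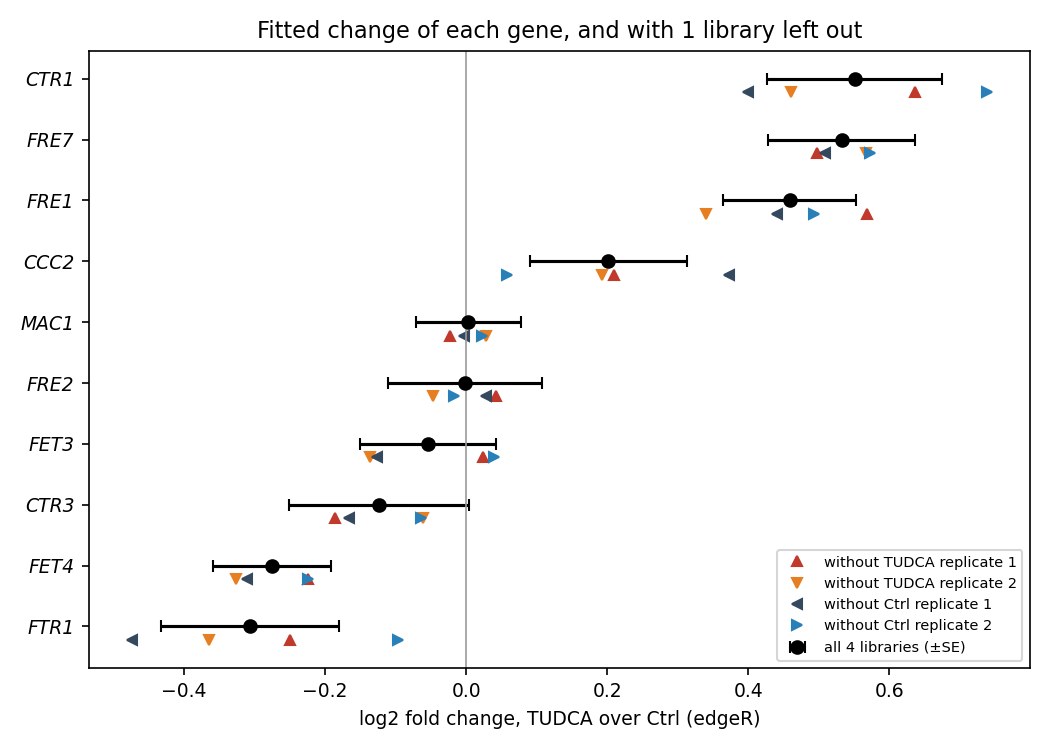
Fitted log2 fold change of TUDCA over Ctrl (x axis) for the 10 genes (rows), with its SE (black), and the value with each library left out (coloured markers). The values of CTR1, FRE1, FRE7 and FET4 keep their side of 0 with any library left out, as do those of FTR1, CCC2 and CTR3, which come closest to 0 at -0.097, 0.058 and -0.062.

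With edgeR (quasi-likelihood test, Benjamini-Hochberg threshold 0.05), 0 of the 10 genes were called, against 0.0935% of the 6420 genes tested. At an unadjusted p under 0.05 there were 5 of the 10, namely CTR1, FRE1, FRE7, FTR1 and FET4, against 8.32% of all genes. DESeq2 called 3, namely CTR1, FRE1 and FRE7, against 0.919%, and limma-voom called 0. Both TUDCA libraries lay above both Ctrl libraries in 4 genes, against 23.7% of all genes, and below them in 3, against 23.9%. The edgeR count depended on the model and on the Ctrl libraries. With a block for the replicate number it was 4 of the 10 (CTR1, FRE1, FRE7 and FTR1), against 353 of the 6420 genes tested. Without Ctrl replicate 2 it was 3 of the 10 (CTR1, FRE1 and FRE7), against 0.667% of all genes, and without Ctrl replicate 1 it was 6, with FTR1, FET4 and CCC2 besides, against 31.0% of all genes. The genes were chosen with these values known, so nothing is read from these counts. The median log2 fold change was 0.00069 over the 10 genes and -0.0037 over all genes tested.

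Per kilobase of sequence that no other feature overlaps, CTR1 was the most abundant of the 10, at 145 ± 12.5 CPM per kb in TUDCA and 98.9 ± 16.9 CPM per kb in Ctrl. FET4 was next, at 73.9 ± 3.70 CPM per kb in TUDCA and 89.5 ± 4.26 CPM per kb in Ctrl. The library ranges of CTR1 and FET4 did not meet in TUDCA, but they overlapped in Ctrl. In TUDCA the order went on with MAC1, FTR1, FRE1, FET3, CCC2, CTR3, FRE7 and FRE2, and no neighbours in it had overlapping ranges. CCC2 and CTR3 all but met there, at 15.017 CPM per kb in the lower CCC2 library and 15.013 in the higher CTR3 library. In Ctrl the order went on with FTR1, MAC1, FRE1, FET3, CTR3, CCC2, FRE7 and FRE2, where FTR1 overlapped MAC1 and FRE1 overlapped FET3. CTR3, at 14.4 ± 0.879 CPM per kb in TUDCA and 15.7 ± 0.870 CPM per kb in Ctrl, was far below its sister gene. The lowest gene, FRE2, was at 7.31 ± 0.319 CPM per kb in TUDCA and 7.32 ± 0.126 CPM per kb in Ctrl.

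FRE1, FRE2 and FRE7 belong to a family of reductases whose other members, FRE3 to FRE6 and FRE8, are mostly under iron control. FRE3, a siderophore reductase gene, was at 26.3 and 24.7 CPM in TUDCA and at 21.7 and 21.1 CPM in Ctrl, a log2 fold change of 0.25 (SE 0.095). FRE4 had -0.068 (SE 0.11), and -0.021 without Ctrl replicate 2. FRE6, of the vacuole, had 0.090 (SE 0.077), with 0.040 without Ctrl replicate 2 and 0.16 without Ctrl replicate 1. FRE8 had 0.42 (SE 0.17) and FRE5 0.33 (SE 0.16), but in both Ctrl replicate 2 lay well below the other 3 libraries, with 31.4 CPM for FRE8 and 36.5 CPM for FRE5. Without it their values were 0.16 and 0.088. FRE1 and FRE7 had the 2 highest log2 fold changes of the 8, and were at 0.49 and 0.57 without Ctrl replicate 2. That order depended on the Ctrl libraries, since without Ctrl replicate 1 FRE8 (0.76) and FRE5 (0.64) were above FRE7 (0.51) and FRE1 (0.44).

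**Figure D4:**
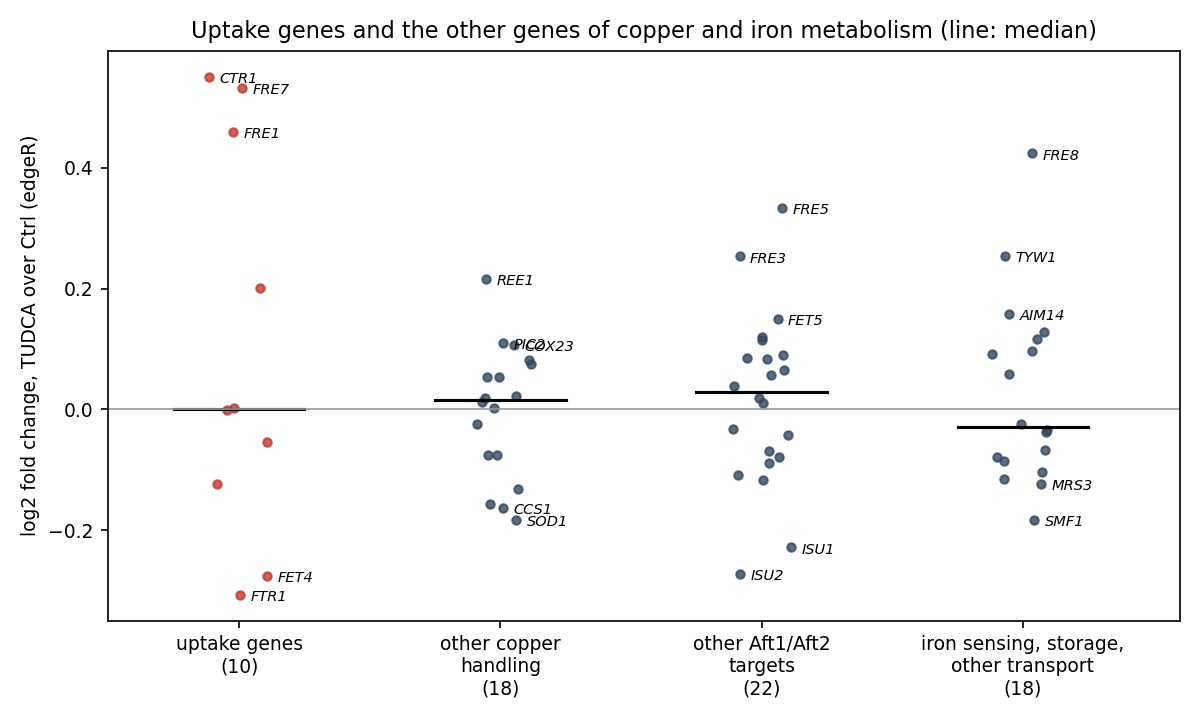
Log2 fold change of TUDCA over Ctrl (y axis) for each of the 10 uptake genes and for the tested genes of the 3 other lists (x axis), with list medians as lines. With all 4 libraries, CTR1, FRE7 and FRE1 sit above every gene of the other lists, with FRE8 at 0.42 the next. Without Ctrl replicate 1, FRE8 (0.76) and FRE5 (0.64) were above FRE7 (0.51), FRE1 (0.44) and CTR1 (0.40). The genes and lists were chosen with results of these data known, so nothing is read from this order.

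The other genes of copper handling had log2 fold changes between -0.18 and 0.22. Of 18 tested, edgeR called 0 in either direction, against 0.0935% of all genes. DESeq2 also called 0, against 0.919%, as did limma-voom. At an unadjusted edgeR p under 0.05 there was 1, against 8.32% of all genes. Their median log2 fold change was 0.015, against -0.0037 over all genes. Without Ctrl replicate 1, edgeR called 3 of them, against the 31.0% of all genes given above. That 1 gene was REE1, known as a Mac1 target, at 129 and 128 CPM in TUDCA and 110 and 111 CPM in Ctrl (log2 fold change 0.22, SE 0.075, edgeR adjusted p = 0.544). Of the 20 windows of the list, 5 hold a Mac1 motif, against 7.60% of all genes: those of REE1, IRC7, SOD1, CCS1 and BSD2, which takes part in metal transporter turnover. The list includes known Mac1 targets, and the window was set with motif positions seen, so this describes the list and not the treatment. REE1 was above Ctrl in both TUDCA libraries, as were 23.7% of all genes, and CCS1 below it in both, as were 23.9%. The groups overlapped in IRC7, SOD1 and BSD2. IRC7, another known Mac1 target, was at 45.2 and 54.5 CPM in TUDCA and 52.8 and 58.4 CPM in Ctrl.

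Copper-using and copper-sensing genes gave no edgeR calls with all 4 libraries, where 0.0935% of all genes were called. SOD1, the copper-zinc superoxide dismutase gene, was at 696 and 650 CPM in TUDCA and at 694 and 834 CPM in Ctrl (log2 fold change -0.18, edgeR adjusted p = 0.571), with -0.041 without Ctrl replicate 2 and -0.30 without Ctrl replicate 1. CCS1, whose protein hands copper to Sod1, had -0.16 (edgeR adjusted p = 0.546), and -0.094 without Ctrl replicate 2. COX19, of copper delivery to cytochrome oxidase, had -0.13 (edgeR adjusted p = 0.547). CUP2, the activator of genes induced by excess copper, was at 27.5 and 25.7 CPM in TUDCA and at 25.5 and 27.1 CPM in Ctrl, and other features cover 60.3% of it. The metallothionein genes CUP1-1 and CUP1-2, its best known targets, are listed at 0 in every library. They are wholly covered by other features, so no level can be given, and CRS5 was not analysed here.

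Other targets of Aft1 and Aft2 had log2 fold changes between -0.27 and 0.33. Of 22 tested, edgeR called 0 in either direction, against 0.0935% of all genes. DESeq2 also called 0, against 0.919%, as did limma-voom. At an unadjusted edgeR p under 0.05 there were 2, against 8.32% of all genes, and the list median log2 fold change was 0.030. Without Ctrl replicate 1, edgeR called 6 of them, against 31.0% of all genes. The iron-sulfur scaffold genes had the lowest values, with ISU2 at -0.27 and ISU1 at -0.23, and FRE3 was the other gene at an unadjusted p under 0.05 beside ISU2 (edgeR adjusted p = 0.544 for each of the 3). ISU2 was at 38.2 and 39.9 CPM in TUDCA and at 44.4 and 49.9 CPM in Ctrl. ISU1 was at 83.6 and 82.6 CPM in TUDCA and at 88.2 and 107 CPM in Ctrl, with a log2 fold change of -0.083 without Ctrl replicate 2 and -0.35 without Ctrl replicate 1. Of these 22 genes, 12 hold TGCACCC in the window, against 1.45% of all genes, which describes the list and not the treatment.

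Genes of iron sensing, storage and other transport gave 0 calls of 18 in edgeR, against 0.0935% of all genes. DESeq2 also called 0, against 0.919%, as did limma-voom. At an unadjusted edgeR p under 0.05 there were 2, against 8.32% of all genes, and the list median log2 fold change was -0.029. Without Ctrl replicate 1, edgeR called 5 of them, against 31.0% of all genes. AFT1 was at 54.3 and 59.7 CPM in TUDCA and at 54.0 and 51.2 CPM in Ctrl (log2 fold change 0.12, edgeR adjusted p = 0.581), with 0.18 without TUDCA replicate 1 and 0.047 without TUDCA replicate 2. AFT2 was at 59.9 and 61.0 CPM in TUDCA and at 64.4 and 62.3 CPM in Ctrl (log2 fold change -0.067, edgeR adjusted p = 0.694), with -0.031 without Ctrl replicate 1. The 3 genes with the smallest p were TYW1, an iron-sulfur enzyme gene of tRNA modification, at 0.25 (edgeR adjusted p = 0.544), FRE8, given above (edgeR adjusted p = 0.544), and AIM14, a relative of the FRE genes, at 0.16 (edgeR adjusted p = 0.546), with 0.10 without Ctrl replicate 2.

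The profile of CTR1, FRE1 and FRE7 over the 4 libraries, as the mean of their centred log2 CPM, was set against 5376 other genes with at least 10 CPM by Euclidean distance. The nearest gene was YLR410W-B, the Gag-Pol gene of the Ty2 element next to CTR3, at a distance of 0.11, against a median of 0.55 over all genes and 0.12 to 0.15 for CTR1, FRE1 and FRE7 themselves. It was at 23.1 and 27.2 CPM in TUDCA and at 17.0 and 18.0 CPM in Ctrl, with a log2 fold change of 0.52 (SE 0.12). That value was 0.40 without TUDCA replicate 2 and 0.64 without TUDCA replicate 1. Other features cover 24.8% of YLR410W-B. The element lies just downstream of the Mac1 motifs shown above, and whether they act on this gene was not tested. Next came YHB1, a flavohemoglobin gene, at 0.14 (log2 fold change 0.38), and the hexose transporter genes HXT1, HXT3 and HXT2, at 0.16, 0.16 and 0.17 (0.46, 0.57 and 0.43). The value of HXT1 was 0.30 without TUDCA replicate 2. These distances rest on 4 libraries and on the difference between the groups itself, and have no test.

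Gag-Pol genes of 9 other Ty2 elements were also measured, a set looked up after the value of YLR410W-B was seen. Their log2 fold changes ran from -0.80 to 0.39, with a median of 0.14, and their distances from the mean profile from 0.45 to 1.35. The -0.80 and the 1.35 both came from YFL002W-A, which had only 20 and 21 counts in TUDCA and 34 and 40 in Ctrl. YGR161W-B and YCL019W were also under 1 CPM in every library, with distances of 1.01 and 0.97. Both TUDCA libraries lay above both Ctrl libraries in 2 of the 9, against 23.7% of all genes, and below them in 3, against 23.9%, and the groups overlapped in 4. The low-count genes YFL002W-A and YGR161W-B were among those that lay below. YDR210W-B and YOR343W-B, the 2 that lay above, had Ctrl replicate 2 far below Ctrl replicate 1 (6.10 against 10.2 CPM and 16.7 against 24.7 CPM), a pattern that YLR410W-B did not have. Ty2 elements are nearly identical in sequence and the rule for reads that match several places is not given in the sources used here, so how well counts were kept apart between copies was not tested.

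**Figure D5:**
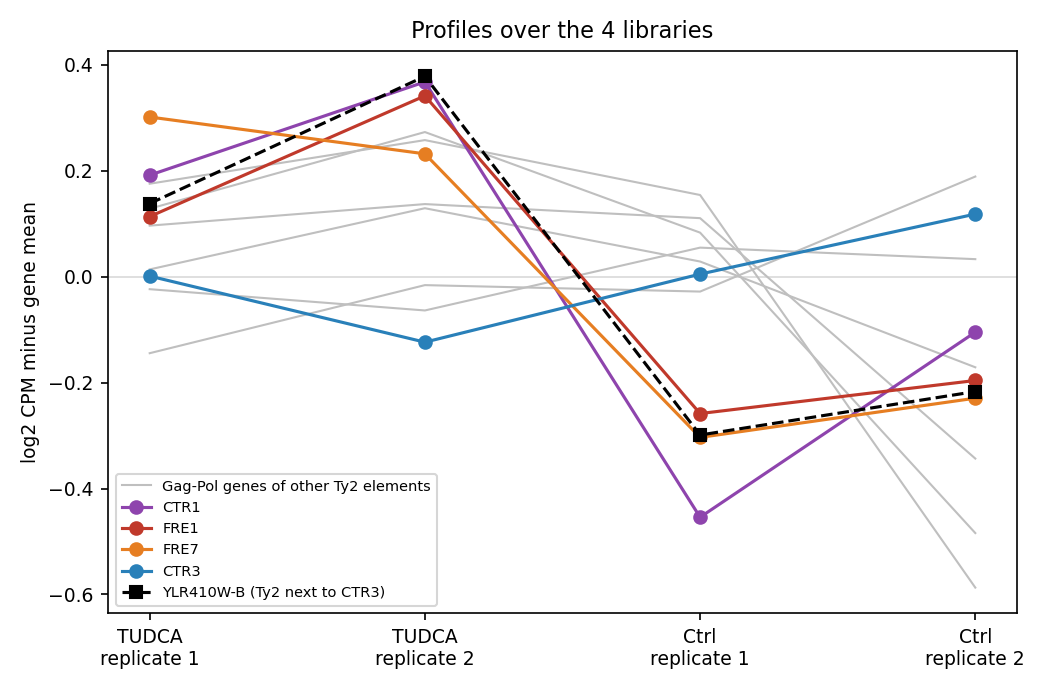
Log2 CPM of each gene minus its own mean (y axis) in the 4 libraries (x axis), for CTR1, FRE1, FRE7, CTR3, the Ty2 Gag-Pol gene YLR410W-B and, in grey, Gag-Pol genes of other Ty2 elements with a mean of at least 1 CPM. YLR410W-B runs with CTR1, FRE1 and FRE7, while CTR3, 102 bases beyond the element, does not.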

How the data were processed

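The members and the gene lists were chosen with earlier results of these data known. The deposited values used are raw counts per gene, made by the authors from stranded, poly(A)-selected libraries, per the labels. Per the submitters' processing notes, STAR 2.5.4b, featureCounts 1.6.0, DESeq2 1.26.0 and build R64 were used. The annotation, the multimapping rule and the strand setting are not given in the sources used here. Of 7127 features, 6047 matched RefSeq R64 locus tags, 6038 of them with the same start and end.

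The analysis used R 4.3.3 and edgeR 4.0.16: filterByExpr (minimum count 10) kept 6420 genes, TMM scaled the libraries, and the quasi-likelihood F test was adjusted by Benjamini-Hochberg over all genes (threshold 0.05). The same script was tested on simulated data. Alternatives were DESeq2 1.42.0, limma-voom (limma 3.58.1), other scalings, no filter, a replicate block and leaving out each library. Each of the 10 genes had at least 808 counts in every library, and counting error was not separated from the spread between libraries. Genes were named by a fixed rule: all members, called or else the 3 smallest p per list, CUP1-1, CUP1-2, SOD1, CUP2, AFT1 and AFT2, the 5 nearest profiles and LEU2, URA3 and LYS2. IRC7, BSD2, CRS5, YPR123C, GRE2, FRE4 to FRE6 and the other Ty2 genes were added after their values were seen. Motifs were searched on both strands in windows 400 to 101 bases before start codons.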

Additional observations from a re-analysis of the deposited data

How the results depend on the processing

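Of the 10 genes, 7 kept their sign under all 11 alternatives. FRE2, FET3 and MAC1, with values near 0, did not: MAC1 was at 0.047 with library-size scaling and -0.042 with upper-quartile scaling. List medians, all within 0.03 of 0, changed sign with a scaling: with upper-quartile scaling the 10 genes were at -0.044, copper handling at -0.029 and Aft1 and Aft2 targets at -0.014, and with library-size scaling iron sensing was at 0.015. With 1 library left out, FRE1 ranged from 0.34 to 0.57, FTR1 from -0.47 to -0.097 and CCC2 from 0.058 to 0.37. Over all genes edgeR called 6, DESeq2 59, edgeR with the replicate block 353, and edgeR with 1 library left out 7 to 2010, the most without Ctrl replicate 1 (1139 higher and 871 lower). Of the 10 genes, DESeq2 called 3, edgeR with the replicate block 4 (CTR1, FRE1, FRE7 and FTR1), and edgeR with 1 library left out 0 to 6. Those 6 were without Ctrl replicate 1, and 3 (CTR1, FRE1 and FRE7) without Ctrl replicate 2. Called genes with 1 library left out numbered 0 to 3 for copper handling, 0 to 6 for Aft1 and Aft2 targets and 0 to 5 for iron sensing, each highest without Ctrl replicate 1. With the replicate block, the Aft list and the iron sensing list had 1 each, of 22 and 18 genes, against 353 of all 6420 genes tested. Same-numbered libraries share only a number in the labels, and their deviations correlated at 0.35 over 5386 genes. The cause of these changes was not tested.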

Other observations

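FRE7 lies 1083 bases upstream of GRE2 on chromosome XV, and both genes read in the same direction. GRE2, which encodes a stress-induced reductase of methylglyoxal, was at 176 and 174 CPM in TUDCA and at 106 and 113 CPM in Ctrl, and rose by 0.68 on the log2 scale (SE 0.080; adjusted p = 0.0372 in edgeR). The call was lost without TUDCA replicate 1 (edgeR adjusted p = 0.0569) and with upper-quartile scaling (edgeR adjusted p = 0.0600). Other features cover 24.3% of GRE2. FRE2 and FET4 lie close to chromosome ends, at 9.09 and 9.89 kb, and FRE7 at 40.7 kb, while the other 7 genes lie at least 115 kb from one.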
